A study of Mus musculus with 9 samples.

Results

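The genes of the Wnt pathway were followed in whole brains of young and old mice. They were taken from the table of raw counts by symbol and comprised protein-coding genes for Wnt ligands, Frizzled and LRP receptors, secreted inhibitors, the R-spondin axis, the cytoplasmic relay and the nuclear factors Lef1 and Tcf7. Of 49315 rows of the table, 60 were such genes, and 55 of them had enough counts to be tested with edgeR. Male C57BL/6J mice of wild-type genotype were used, 5 at 3 months (young) and 4 at 33 months (old), with no treatment stated. The age was the only difference between the groups that the sample labels gave. PolyA-selected RNA from each brain was sequenced as 1 library per mouse, and old mice 1, 3, 4 and 5 were analysed.

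Wnt proteins are secreted, lipid-modified ligands that bind Frizzled receptors together with LRP co-receptors. In the canonical branch this binding keeps β-catenin, encoded by Ctnnb1, from being degraded by a complex built on axin, so that it can join LEF and TCF proteins at target genes. In the brain the pathway patterns the embryonic neural tube, and in the adult it takes part in neurogenesis, synapse function and the upkeep of the blood-brain barrier.

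Counts per library ranged from 14229259 to 21150439. Levels in single mice are given in CPM, the counts of a gene scaled to a common library size after TMM normalization. Levels of different genes are compared only in TPM, which the authors divided by gene length. The ages were compared by quasi-likelihood in edgeR, and an adjusted p under 0.05 after Benjamini-Hochberg correction over 18492 genes counted as passing. By this test 2039 genes, 11.0% of those tested, differed with age, 1146 of them (6.20%) higher and 893 (4.83%) lower in old mice. The log2 fold change of the median gene was -9.21e-05. Markers of olfactory bulb, summed over 5 genes, ranged from 23.7 to 80.2 CPM in young and from 23.0 to 160.5 CPM in old mice, with Tbx21 at 0 in young mouse 1. All 5 blood markers were higher in old mice (86.1 to 115.9 CPM in young and 127.9 to 408.9 CPM in old mice), as were 4 of 8 endothelial markers. Of the other markers, 2 of 5 for microglia and 2 of 6 for pericytes and smooth muscle were higher, and of the 5 neuron markers only Map2 passed, lower by a log2 fold change of -0.14 (adjusted p = 0.034). Of the 5 oligodendrocyte markers, 2 were higher and 1 lower. Of the 5 for their precursors, 1 was higher and 1, Gpr17, lower (log2 fold change -0.83, adjusted p = 1.1e-05). Of the 5 genes listed for dentate granule cells only Calb1 passed, lower in old mice (-0.45, 0.0088). Calb1 measured 184, 137, 191 and 144 CPM in old mice 1, 3, 4 and 5 and 190 to 243 CPM in young mice. None passed for astrocytes, choroid plexus, leptomeningeal fibroblasts or thalamus. The cerebellar markers summed to 605, 375, 614 and 462 CPM in old mice 1, 3, 4 and 5 and to 521 to 671 CPM in young mice. None of these 5 markers passed, and old mice 1 and 4 lay inside the range of the young mice. In whole tissue, fewer cells of a type and less RNA per cell cannot be told apart.

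Few Wnt pathway genes passed the test of age. The transcription factor Tcf7 and the ubiquitin ligase Rnf43 were the only members that passed the test, both higher in old mice by 1.32-fold and 1.33-fold, and none was lower. These 2 calls made up 3.64% of the 55 tested members, beside 11.0% of all tested genes. This gap depended on the processing, since without the filter on low counts 5 of 60 members passed (8.33%), beside 6.72% of all genes. The median log2 fold change of the members was 0.0042, with 29 members above and 26 below 0, and no member passed both the test and an absolute log2 fold change over 0.58, which 2.68% of all tested genes did. The median standard error was 0.11 on the log2 scale for the members and 0.084 for all genes. For 36 members, or 65.5%, the whole 95% interval of the log2 fold change lay between -0.58 and 0.58, as it did for 71.9% of all genes. Without adjustment, 15 members (27.3%) had a p under 0.05, close to the 26.0% of all tested genes.

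**Figure D1:**
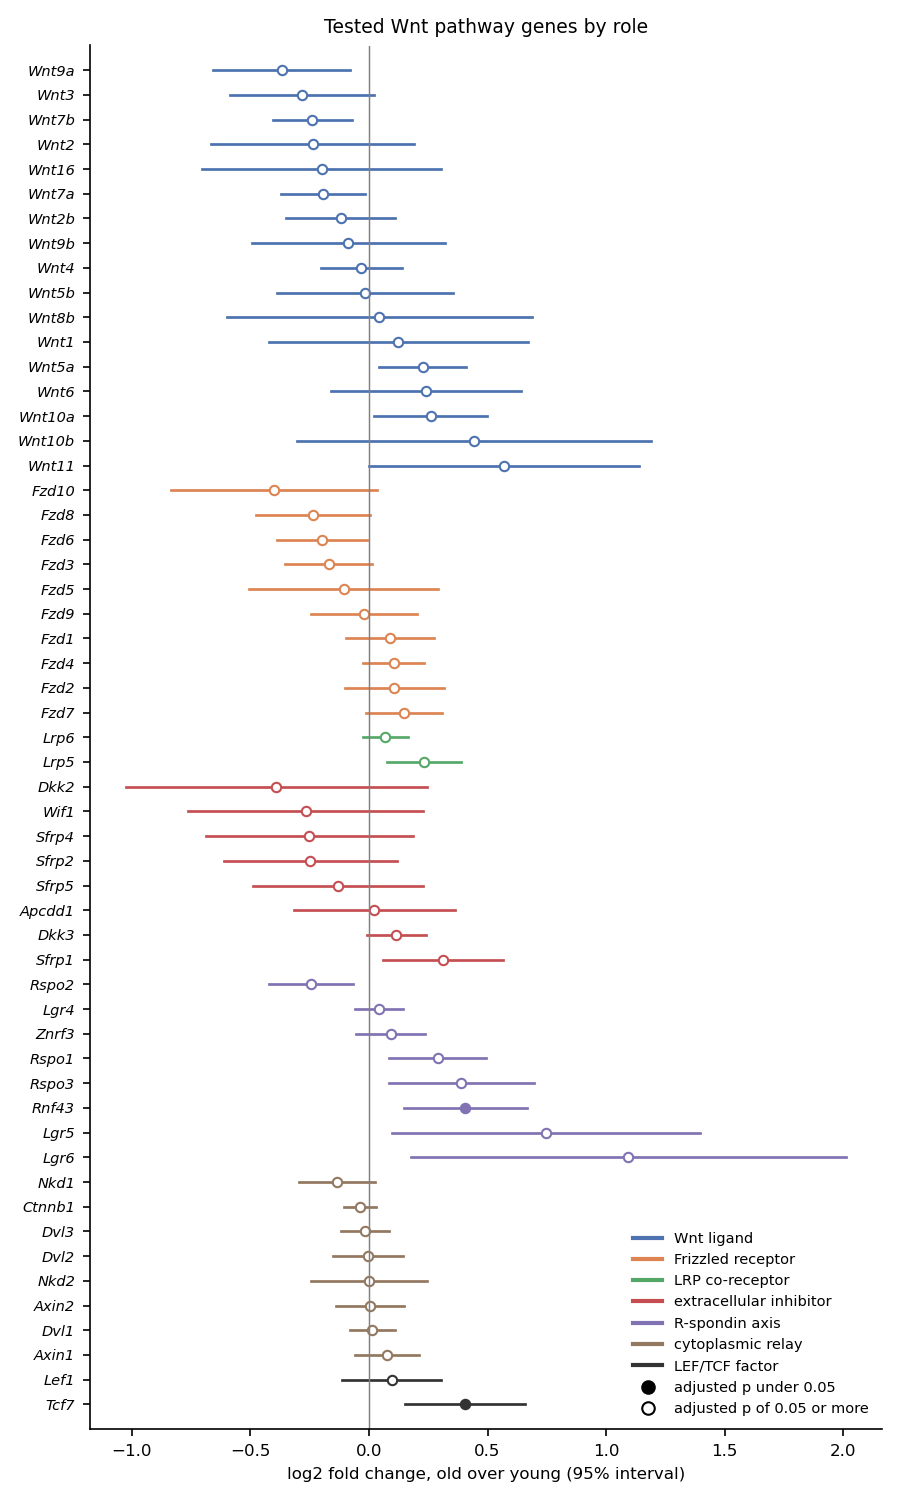
Log2 fold change of old over young mice for the 55 tested Wnt pathway genes, ordered by role, with points for the estimates and lines for the 95% intervals of the edgeR fit. Filled points mark Tcf7 and Rnf43, the 2 genes with an adjusted p under 0.05, and the intervals of Lgr5 and Lgr6 are among the widest.

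The levels of the members spanned more than 3 orders of magnitude per length. Ctnnb1 held the first place of the 60 in each of the 9 libraries, with a mean of 186 TPM. Dkk3, a divergent secreted member of the Dickkopf family, was second in each library with 147 TPM. The Dishevelled genes Dvl1 (58.5 TPM) and Dvl3 (33.6 TPM), which relay the signal inside the cell, held places 3 and 4 in each library. The order below them was not fixed. Axin1, Fzd1, Lgr4 and Apcdd1, with means from 17.3 to 19.4 TPM, took places between 5 and 12 that changed from mouse to mouse. A mean above 10 TPM was found for 16 members, a mean of 1 to 10 TPM for 34 and a lower one for 10. The log2(TPM + 1) of the median gene was lower by 0.14 in old mice. TPM were therefore used to compare the ages only as an alternative to the main test. Adjusted p-values given on the TPM scale come from limma on log2(TPM + 1), where this general shift was not removed. In that fit 594 of all tested genes (3.21%) passed. Calls of genes higher and of genes lower in old mice were lost on this scale, and the part of the shift in these losses was not tested.

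**Figure D2:**
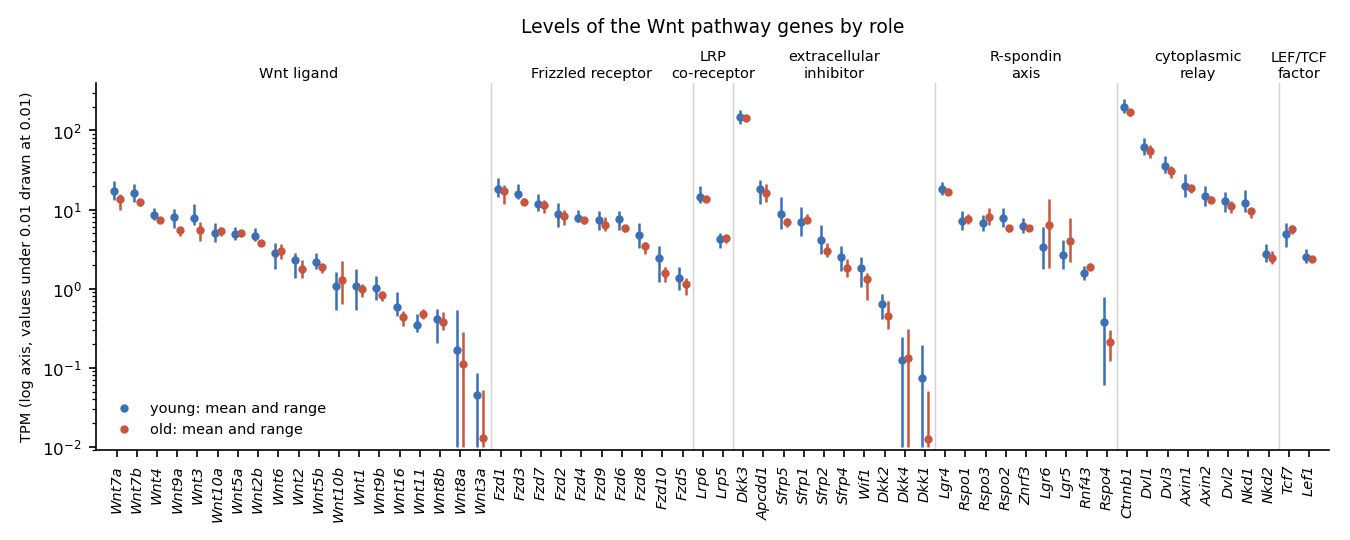
TPM (log axis) of all 60 Wnt pathway genes by role, with points for the mean and lines for the range over 5 young (blue) and 4 old (red) mice. Ctnnb1 at a mean of 186 TPM and Dkk3 at 147 TPM stand above the other genes, and Wnt3a, Dkk1 and Dkk4 lie near 0.

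The 5 members that were not tested were near the limit of detection. Rspo4 had 1 to 11 counts per library, Wnt8a 0 to 4, Dkk4 0 to 3, Dkk1 0 to 2 and Wnt3a 0 or 1. Dkk1 encodes a secreted inhibitor that blocks LRP5 and LRP6, and Wnt3a a canonical ligand of the developing nervous system. At this depth a difference between the ages in these genes was not detectable.

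Among the 19 Wnt ligand genes, 17 were tested and none passed the test, while 5 (29.4%, beside 26.0% of all tested genes) had an unadjusted p under 0.05 and 1, Wnt7b, passed with DESeq2. Their median log2 fold change was -0.032, with 7 above and 10 below 0. The ligands with the highest levels were Wnt7a (15.6 TPM) and Wnt7b (14.6 TPM), known for their role in the growth of brain vessels and the formation of the blood-brain barrier. Wnt7b measured 27.3, 32.5, 27.6, 25.7 and 24.6 CPM in young mice 1 to 5 and 22.4, 25.0, 21.8 and 24.4 CPM in old mice 1, 3, 4 and 5. Of these, only old mouse 3 lay inside the range of the young mice. Its log2 fold change was -0.24 (SE 0.078, 95% interval -0.40 to -0.072), which did not pass (adjusted p = 0.065). It passed with DESeq2 (adjusted p = 0.0497), without the filter on low counts (0.0238), without young mouse 5 (0.0499), and with the level of the olfactory bulb markers as a covariate (log2 fold change -0.33, adjusted p = 0.0097). Wnt7a had 21.9, 19.3, 21.4, 19.3 and 22.4 CPM in young and 19.8, 15.2, 17.8 and 19.8 CPM in old mice. Old mice 1 and 5 lay among the young mice, and the log2 fold change of -0.19 had an adjusted p of 0.15.

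Wnt9a, which lies beside Wnt3a on chromosome 11, differed by -0.37 in log2 fold change (95% interval -0.66 to -0.078, adjusted p = 0.098). Its values were 10.5, 13.1, 8.73, 9.47 and 8.71 CPM in young and 7.91, 9.66, 6.84 and 7.16 CPM in old mice. Of the old mice, 3 lay below all young mice and old mouse 3 lay among them. Without old mouse 3 the gene passed (log2 fold change -0.47, adjusted p = 0.0491), and it also passed without the filter on low counts (-0.38, 0.0409) and with the olfactory bulb covariate (-0.47, 0.0476). Wnt5a, a ligand mostly linked to noncanonical signalling, differed by 0.23 (adjusted p = 0.105) and passed without old mouse 1. Wnt10a was at 4.04 to 5.28 CPM in young and 5.57 to 5.9 CPM in old mice, with no overlap of the ages and an adjusted p of 0.15. Wnt11 also did not overlap, at 0.344 to 0.732 CPM in young and 0.763 to 1.13 CPM in old mice, but rested on 5 to 16 counts per library and had an adjusted p of 0.19.

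The Wnt genes included 4 pairs that sit next to each other with no coding gene between them, as is typical of the family. Wnt6 and Wnt10a on chromosome 1 lay 6193 bases apart, Wnt10b and Wnt1 on chromosome 15 lay 11706 bases apart, and on chromosome 11 the gap was 16175 bases for Wnt3a and Wnt9a and 24328 bases for Wnt9b and Wnt3. The log2 fold changes within these pairs were 0.24 and 0.26 for Wnt6 and Wnt10a, 0.44 and 0.12 for Wnt10b and Wnt1, and -0.087 and -0.28 for Wnt9b and Wnt3, and none of these genes passed the test. Their levels differed within a pair as well, with 0.926 TPM for Wnt9b beside 6.77 TPM for Wnt3.

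None of the 10 Frizzled genes, which encode the receptors for Wnt proteins, passed with edgeR or DESeq2, and 1 had an unadjusted p under 0.05. Their log2 fold changes ranged from -0.40 for Fzd10 to 0.15 for Fzd7, with a median of -0.064. The interval lay within 0.58 of 0 for 9 of the 10, with Fzd10 the exception (-0.84 to 0.032). Fzd1 had the highest level of the family at 17.7 TPM. It was at 26.3 to 31.1 CPM in young and at 24.3 to 34.0 CPM in old mice, so that the old mice covered the whole range of the young ones. Fzd4, the receptor for norrin in retinal and brain vessels, differed by 0.10 (95% interval -0.023 to 0.23, adjusted p = 0.295).

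The co-receptors Lrp5 and Lrp6 both take up the Wnt signal at the membrane. Lrp5 measured 16.2, 16.6, 14.5, 16.9 and 14.3 CPM in young and 17.4, 18.0, 20.4 and 18.3 CPM in old mice. All old mice lay above all young mice. The log2 fold change of 0.23 (SE 0.073, 95% interval 0.077 to 0.39) had an adjusted p of 0.056 and passed without young mouse 4. Lrp6 had the higher level per length (14.1 TPM beside 4.29 TPM for Lrp5), and its log2 fold change was 0.069 (95% interval -0.024 to 0.16, adjusted p = 0.34). Whether the difference between the co-receptors in their response to age was itself beyond error was not tested.

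Of the 10 secreted and membrane inhibitors, 8 were tested and none passed with edgeR or DESeq2, and 1 had an unadjusted p under 0.05. Dkk3 was at 194, 191, 180, 217 and 181 CPM in young and at 206, 227, 209 and 193 CPM in old mice. The ages overlapped, and its log2 fold change of 0.12 had a 95% interval of -0.0072 to 0.24 (adjusted p = 0.22). It passed without young mouse 4 alone (adjusted p = 0.0496). Sfrp1, a secreted decoy that binds Wnt proteins, differed by 0.31 (95% interval 0.057 to 0.56, adjusted p = 0.11). Its values were 9.67, 11.8, 13.8, 9.32 and 12.7 CPM in young and 12.2, 15.1, 13.5 and 15.8 CPM in old mice, and old mice 3 and 5 lay above all young mice. The other secreted frizzled-related genes Sfrp2, Sfrp4 and Sfrp5 and the decoy Wif1 had log2 fold changes from -0.27 to -0.13, all with an adjusted p of 0.39 or more. Dkk2, at 0.564 to 1.35 CPM, differed by -0.39 with a 95% interval of -1.03 to 0.25. Apcdd1, a membrane inhibitor found in brain endothelium, differed by 0.023 with a wide interval (-0.31 to 0.36).

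The R-spondin axis sets how much Frizzled and LRP protein stands at the cell surface. The ubiquitin ligases Rnf43 and Znrf3 remove these receptors, and R-spondins, bound to Lgr4, Lgr5 or Lgr6, take the ligases away. Of its 9 genes, 8 were tested, 7 had a log2 fold change above 0, and only Rnf43 passed. The median log2 fold change was 0.34, and 6 of the 8 had an unadjusted p under 0.05, beside 26.0% of all tested genes. These 6 include Lgr5, Lgr6 and Rspo3, whose log2 fold changes were 0.12, 0.16 and 0.18 once the level of olfactory bulb markers entered as a covariate.

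Rnf43 (chromosome 11, 87662722 to 87735539, plus strand) measured 4.6, 4.2, 3.3, 4.01 and 3.77 CPM in young and 4.89, 5.5, 5.09 and 5.75 CPM in old mice, from 48 to 98 counts per library. Every old mouse lay above every young mouse. The log2 fold change was 0.41 (SE 0.12, 95% interval 0.15 to 0.66, adjusted p = 0.0437). The call was lost with DESeq2 (adjusted p = 0.0613), without the filter on low counts (0.0794), on the TPM scale (0.606), with the olfactory bulb covariate (0.125) and when any mouse other than young mouse 1 was left out (0.0529 to 0.116). Its relative Znrf3 was at 17.7 to 20.4 CPM in young and at 18.1 to 21.9 CPM in old mice, with a log2 fold change of 0.091 (adjusted p = 0.43).

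The R-spondin genes differed from each other in sign. Rspo1 measured 5.59, 5.26, 5.5, 5.02 and 4.82 CPM in young and 6.69, 6.14, 6.18 and 6.57 CPM in old mice. Rspo2 measured 10.7, 9.68, 10.1, 9.47 and 8.96 CPM in young and 8.29, 8.82, 7.71 and 8.28 CPM in old mice. All old mice lay above the young mice for Rspo1 and below them for Rspo2. The log2 fold changes were 0.29 (95% interval 0.086 to 0.49, adjusted p = 0.066) and -0.24 (95% interval -0.42 to -0.066, adjusted p = 0.075), and neither passed. Rspo3 had 8.36, 10.3, 6.32, 7.54 and 7.66 CPM in young and 10.3, 9.8, 8.75 and 13.5 CPM in old mice. Old mouse 5 stood above all others, and the log2 fold change of 0.39 (adjusted p = 0.098) was 0.25 without this mouse and 0.50 without young mouse 2 (adjusted p = 0.0341).

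In all, 6 members were higher in every old than in every young mouse (Tcf7, Rnf43, Lrp5, Rspo1, Wnt10a and Wnt11), which is 10.9% of those tested beside 6.50% of all tested genes. Only Rspo2 was lower without overlap, 1.82% beside 6.08%.

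**Figure D3:**
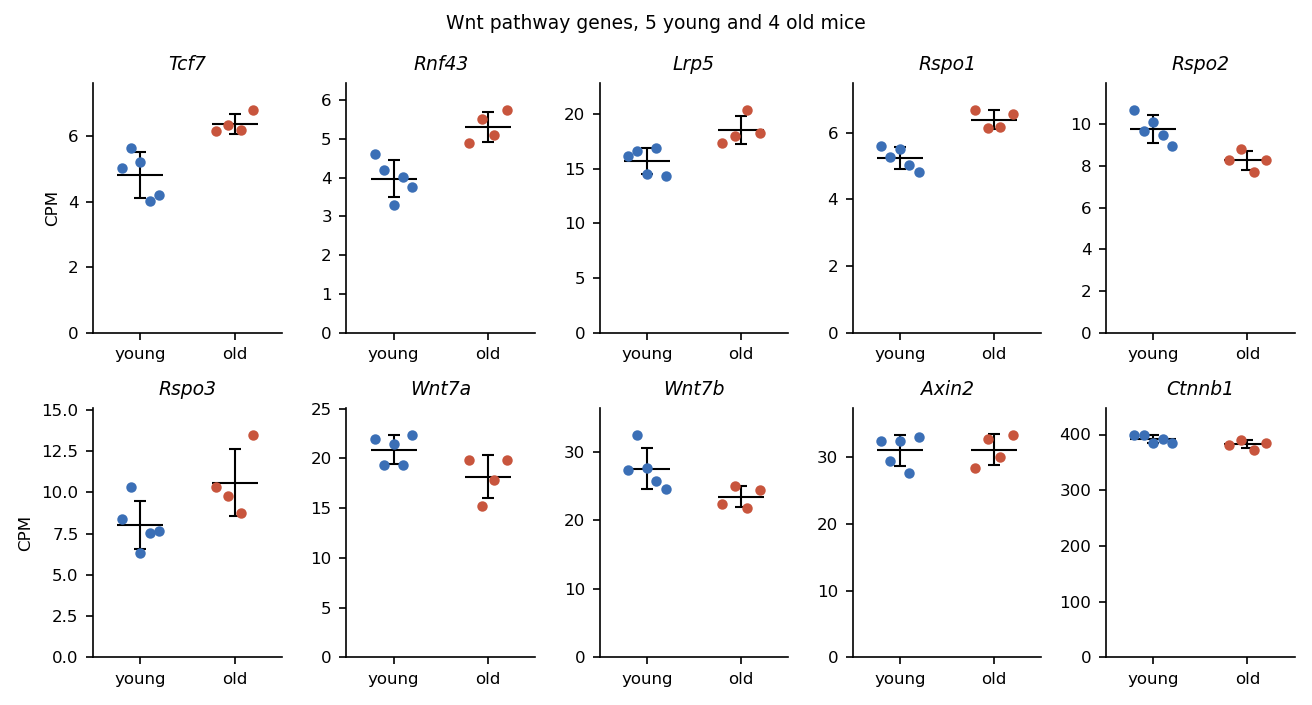
CPM (TMM-scaled, axes from 0) of 10 Wnt pathway genes, with 1 point per mouse for 5 young (blue) and 4 old (red) mice and black bars for the mean and SD. The ages do not overlap for Tcf7, Rnf43, Lrp5, Rspo1 and Rspo2, and lie on top of each other for Axin2 at 31.0 and 31.1 CPM.

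Lgr5 and Lgr6, receptors for R-spondins that mark stem cells in several epithelia, had the largest log2 fold changes of the tested members. Between old mice their coefficients of variation, 74.9% for Lgr6 and 59.2% for Lgr5, were also the largest of the 55. Lgr6 (chromosome 1, 134983301 to 135105276, minus strand) measured 6.27, 16.0, 8.11, 5.51 and 7.47 CPM in young and 12, 19.1, 5.53 and 37.7 CPM in old mice. Lgr5 (chromosome 10, 115450311 to 115587780, minus strand) measured 8.26, 16.4, 9.28, 8.36 and 9.76 CPM in young and 12.5, 15, 9.79 and 32.7 CPM in old mice. Old mouse 5 stood highest for both genes, young mouse 2 stood above the other young mice, and old mouse 4 lay among the young mice. The log2 fold changes were 1.09 for Lgr6 (95% interval 0.18 to 2.01, adjusted p = 0.12) and 0.75 for Lgr5 (95% interval 0.098 to 1.40, adjusted p = 0.13), so neither passed. Without the filter on low counts both passed (adjusted p = 0.00718 for Lgr6 and 0.0135 for Lgr5), and Lgr6 also passed on the TPM scale (0.0238) and without old mouse 4 (1.41, 0.0228).

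The olfactory bulb markers (Eomes, Cdhr1, Doc2g, Tbx21 and Th) varied between the same mice. Their summed level was 23.7, 80.2, 32.1, 25.1 and 32.0 CPM in young and 47.5, 61.9, 23.0 and 160.5 CPM in old mice, highest in old mouse 5 and, among the young, in mouse 2. The covariate was the mean log2 CPM of these markers in each mouse, not their sum. With it, the log2 fold change was 0.16 for Lgr6 (adjusted p = 0.57), 0.12 for Lgr5 (0.54) and 0.18 for Rspo3 (0.36). Without old mouse 5 and without the covariate, the log2 fold change was 0.47 for Lgr6 (adjusted p = 0.483) and 0.25 for Lgr5 (0.528). None of the 5 bulb markers passed the test of age, with log2 fold changes from 0.31 to 1.98. In contrast Lgr4, whose level was the highest of the axis at 17.6 TPM, stayed at 38.6 to 42.0 CPM in young and 40.6 to 45.0 CPM in old mice (log2 fold change 0.042, 95% interval -0.059 to 0.14, adjusted p = 0.62).

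**Figure D4:**
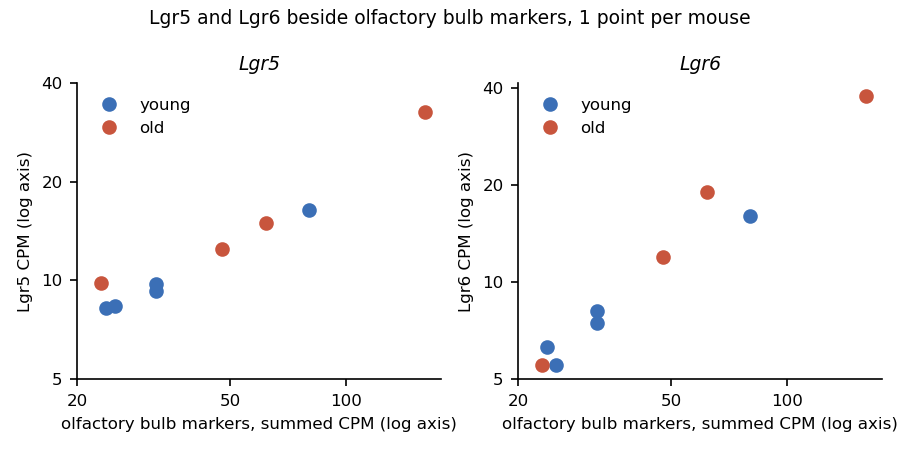
CPM of Lgr5 (left) and Lgr6 (right) against the summed CPM of 5 olfactory bulb markers, both on log axes, with 1 point for each of 5 young (blue) and 4 old (red) mice. The old mouse at 160.5 CPM of bulb markers has the highest Lgr5 (32.7 CPM) and Lgr6 (37.7 CPM), and the young mouse at 80.2 CPM the highest of the young.

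The cytoplasmic relay had the smallest median absolute log2 fold change of the 7 roles, 0.016 beside 0.17 for all tested members and 0.112 for all tested genes. This role also had more counts than the members at large (median total 4801 beside 1435) and a smaller median standard error (0.065 beside 0.11). None of its 8 genes passed with edgeR or DESeq2, none had an unadjusted p under 0.05, and all 8 intervals lay within 0.58 of 0, with log2 fold changes from -0.13 for Nkd1 to 0.075 for Axin1. Ctnnb1 measured 400.0, 400.0, 384, 392 and 385 CPM in young and 382, 390.0, 373 and 384 CPM in old mice. The ages overlapped, and the log2 fold change was -0.038 (SE 0.032, 95% interval -0.11 to 0.030, adjusted p = 0.50), from 5529 to 8116 counts per library. This concerns the transcript, while the pathway acts on the stability of the protein. The Dishevelled genes Dvl1, Dvl2 and Dvl3 had log2 fold changes of 0.014, -0.0043 and -0.018. Nkd1, an inhibitor that binds Dishevelled and is itself induced by Wnt signalling, was at 18.8 to 23.5 CPM in young and 17.6 to 20.1 CPM in old mice (adjusted p = 0.29).

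Axin2, Lef1, Rnf43, Znrf3 and Nkd1 are transcribed in response to canonical signalling in many tissues, and their transcripts are often read as its output. Axin2, the most widely used of them, measured 32.5, 29.5, 32.4, 27.7 and 33.0 CPM in young and 28.4, 32.7, 30.0 and 33.4 CPM in old mice. The means were 31.0 ± 2.32 CPM (SD, n = 5) and 31.1 ± 2.31 CPM (SD, n = 4). The log2 fold change was 0.0042 with a 95% interval of -0.14 to 0.15 (edgeR, adjusted p = 0.98), so that a change of more than 0.15 in either direction lay outside the interval. Lef1 was at 7.63 to 10.3 CPM in young and 8.69 to 9.52 CPM in old mice, with a log2 fold change of 0.095 (95% interval -0.11 to 0.30, adjusted p = 0.59). Of these 5 genes only Rnf43 passed.

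Sequence before the start sites of these target genes was taken from RefSeq (GRCm38.p6) and is shown here for Lef1, Axin2 and Rnf43. Each line gives the 250 bases upstream of a start site, 5′ to 3′ on the strand of the gene (plus for all 3), outside the exons of the GENCODE M21 annotation. Capitals mark letters that LEF and TCF proteins are known to prefer, searched on both strands as CTTTG followed by AA, AT, TA or TT.
Lef1, chr3:131156044-131156293: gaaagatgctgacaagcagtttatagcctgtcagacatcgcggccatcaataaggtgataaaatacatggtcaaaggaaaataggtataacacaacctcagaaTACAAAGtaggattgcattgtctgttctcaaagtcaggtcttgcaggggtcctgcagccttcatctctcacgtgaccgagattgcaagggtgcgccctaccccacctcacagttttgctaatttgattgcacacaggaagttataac
Axin2, chr11:108920099-108920348: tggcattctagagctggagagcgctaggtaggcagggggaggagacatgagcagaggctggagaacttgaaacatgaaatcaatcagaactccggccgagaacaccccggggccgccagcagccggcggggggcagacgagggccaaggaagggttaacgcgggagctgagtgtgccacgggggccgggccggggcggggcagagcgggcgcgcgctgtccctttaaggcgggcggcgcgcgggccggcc
Rnf43, chr11:87699647-87699896: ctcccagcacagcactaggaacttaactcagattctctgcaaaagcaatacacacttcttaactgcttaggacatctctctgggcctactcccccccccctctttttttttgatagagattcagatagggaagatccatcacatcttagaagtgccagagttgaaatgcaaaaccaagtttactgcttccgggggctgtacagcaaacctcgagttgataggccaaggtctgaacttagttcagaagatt

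The windows of Lef1 and Rnf43 belong to start sites inside these genes, and that of Axin2 to the start of the gene. The window of Lef1 held 1 match, on the minus strand, that began at base -147. The other 3 Lef1 windows, both of Rnf43 and those of Axin2 and Tcf7 held none. Over all members, 40 genes had 49 windows in the table, of which 5 held a match, 10.2% beside 4874 of 32851 windows (14.8%) over all genes. These windows belonged to Dkk1, Fzd7, Lef1, Wnt11 and Wnt5b, of which Dkk1 had too few counts to be tested and the others did not pass the test of age. A match is a stretch of letters and not a measured binding site.

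Tcf7 (chromosome 11, 52252371 to 52283014, minus strand) encodes a factor that brings β-catenin to DNA and is best known from T cells. It measured 5.02, 5.64, 5.22, 4.01 and 4.2 CPM in young and 6.16, 6.35, 6.18 and 6.81 CPM in old mice. Every old mouse lay above every young mouse, and the old mice spread less (SD 0.301 CPM) than the young ones (SD 0.693 CPM). The log2 fold change was 0.41 (SE 0.12, 95% interval 0.15 to 0.66, adjusted p = 0.0401), from 68 to 116 counts per library. The call held with DESeq2. It was lost without the filter on low counts (adjusted p = 0.0557), on the TPM scale (0.581), with the olfactory bulb covariate (0.133) and when any mouse other than young mouse 2 was left out (0.0542 to 0.104). Per length, Tcf7 was the higher of the pair (5.21 TPM beside 2.44 TPM for Lef1).

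For context, 93 further genes tied to Wnt signalling were examined, from ligand secretion to the destruction complex, planar cell polarity and other known targets. Of the 91 tested, 13 passed (14.3% beside 11.0% of all genes), 8 of them higher and 5 lower in old mice, and the median log2 fold change was 0.0012. Of the 20 genes of the destruction complex and its kinases, all 20 intervals lay within 0.58 of 0, and only Apc2, a neuronal relative of Apc, passed (-0.15, adjusted p = 0.0437). The kinases Gsk3a and Gsk3b had log2 fold changes of -0.013 and -0.044, Apc of 0.047 and Tcf7l2, the main TCF of thalamic neurons, of -0.084, with adjusted p from 0.43 to 0.87. Porcn and Wls, which equip Wnt proteins for secretion, had -0.085 and 0.036. Of the 10 tested targets, 3 (Slc2a1, Cd44 and Lfng) passed higher and none lower, which is 30.0% beside 11.0% of all genes. Of the other targets, Ccnd1 had -0.051, Myc -0.20 and Mfsd2a, a lipid transporter of brain endothelium, 0.13 (adjusted p = 0.47).

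Slc2a1, the glucose transporter of the blood-brain barrier and a target of endothelial Wnt signalling, measured 107, 117, 117, 137 and 119 CPM in young and 192, 166, 241 and 164 CPM in old mice. It rose without overlap by a log2 fold change of 0.68 (95% interval 0.46 to 0.89, adjusted p = 0.00093). Sox17, an endothelial transcription factor, measured 7.0, 7.8, 5.43, 5.17 and 5.62 CPM in young and 8.98, 9.17, 11.3 and 10.7 CPM in old mice. It rose by 0.69 (95% interval 0.42 to 0.97, adjusted p = 0.0042), also without overlap. Both calls held in each of the 9 fits with a mouse left out, but not on the TPM scale (adjusted p of 0.0644 and 0.199).

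Reck and Adgra2 form, with Frizzled and LRP, the receptor complex through which WNT7A and WNT7B act on brain endothelium. Reck was at 14.2 to 14.9 CPM in young and 17.0 to 18.6 CPM in old mice (log2 fold change 0.27, adjusted p = 0.0090). Adgra2 was at 23.4 to 26.9 CPM in young and 27.5 to 30.1 CPM in old mice (0.19, adjusted p = 0.0343). Tspan12, the helper of Fzd4 in norrin signalling, was lower, at 16.4 to 18.6 CPM in young and 13.5 to 15.8 CPM in old mice (-0.25, adjusted p = 0.0278). The ages did not overlap in any of these 3 genes. With a mouse left out, the Adgra2 call was kept only without young mouse 5, old mouse 1 or old mouse 3 (adjusted p otherwise up to 0.0969), the Tspan12 call only without young mouse 1, young mouse 2, old mouse 4 or old mouse 5 (up to 0.0888), and that of Reck in all 9 fits. None of the 3 passed on the TPM scale (adjusted p of 0.783 for Reck, 0.954 for Adgra2 and 0.283 for Tspan12). Ndp, the gene for norrin itself, differed by -0.16 (adjusted p = 0.41). Beside these genes, the 8 endothelial markers summed to 249.6 to 264.1 CPM in young and 285 to 320.4 CPM in old mice, with Ly6c1, Pecam1, Cdh5 and Flt1 passing higher, log2 fold changes from -0.20 to 0.11 for Cldn5, Tek, Slco1a4 and Tie1, and none at 0. The part of these markers in the changes of Slc2a1, Sox17, Reck, Adgra2 and Tspan12 was not tested.

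The others that rose were Cd44 (0.60, adjusted p = 0.0174), an adhesion receptor, and Lfng (0.32, 0.0118), a modifier of Notch, both also listed as targets, with Igfbp4 (0.26, 0.0440), a secreted binding protein, and Prickle3 (0.66, 0.0483) of planar cell polarity. Nfatc2 (-0.24, 0.0228), a factor downstream of calcium, and Fuz (-0.28, 0.0311), a planar polarity gene of cilia, fell. The Cd44 call was lost without old mouse 4 (adjusted p = 0.0540), that of Nfatc2 without young mouse 5, old mouse 1 or old mouse 5 (up to 0.0659), and that of Fuz without any mouse other than young mouse 2, young mouse 5 or old mouse 3 (up to 0.0868). On the TPM scale the calls of Cd44, Lfng, Nfatc2 and Fuz were all lost (adjusted p from 0.302 to 0.666). Kremen2, a receptor for Dickkopf proteins, fell by 0.89 on the log2 scale (95% interval -1.33 to -0.45, adjusted p = 0.0128), from 1.42 to 1.79 CPM in young mice to 0.704 to 1.04 CPM in old mice. Its exons overlap an antisense gene, 9530082P21Rik, with a median of 1871 counts, and those of Fuz overlap Ap2a1 with 4485. Without strand, reads of such pairs cannot be told apart. Among the members, 12 had exons that overlap a gene on the opposite strand, Ctnnb1, Axin2, Lef1 and Wnt7b included, with at most 582 counts for the other gene at the median.

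**Figure D5:**
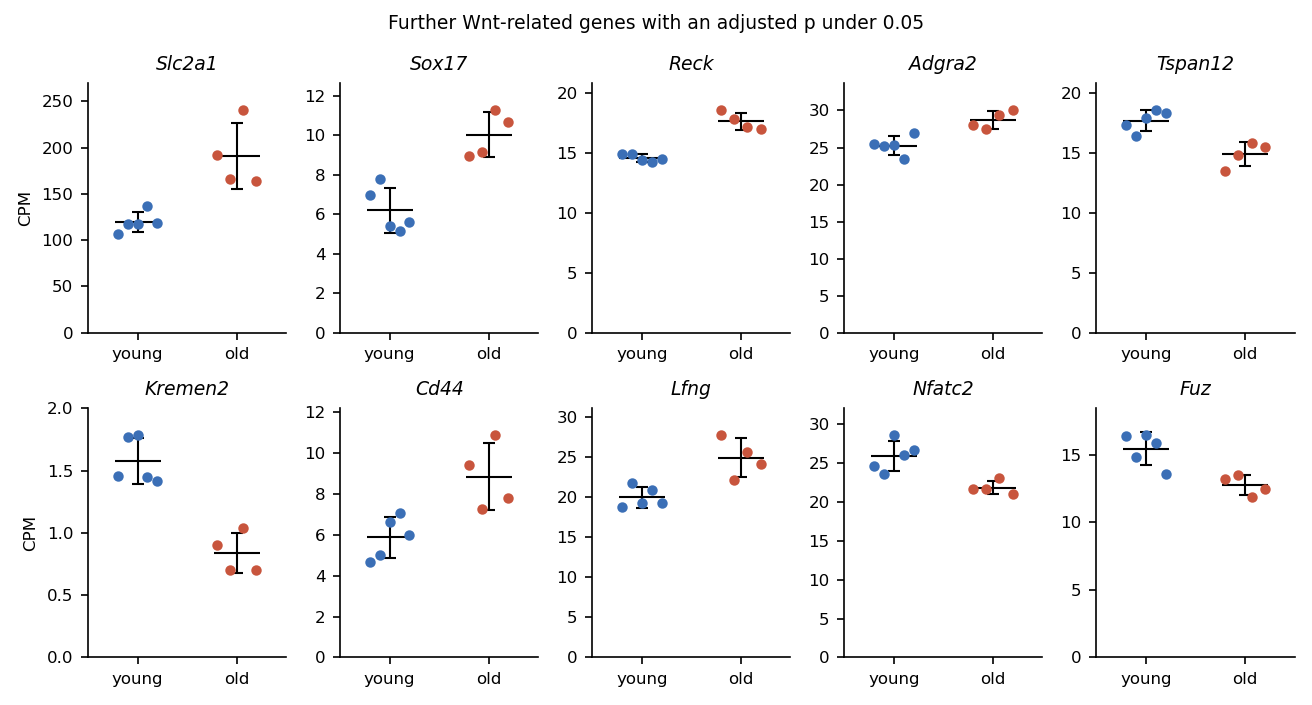
CPM (TMM-scaled, axes from 0) of 10 further Wnt-related genes with the smallest p, with 1 point per mouse for 5 young (blue) and 4 old (red) mice and black bars for the mean and SD. Slc2a1 and Sox17 are higher and Kremen2 and Tspan12 lower in all old than in all young mice.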

How the data were processed

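PolyA-selected RNA of 9 whole mouse brains was sequenced, as the labels and the paper's methods describe. Young mice were 3 months old by the labels and 3 or 4 months by the paper. The authors trimmed reads with Trimmomatic, aligned them to GRCm38 with STAR and counted uniquely mapped reads on exons with featureCounts. Strand-specific counting is stated only for strand-specific libraries. The submitters' processing notes name mm10 and DESeq2. The authors deposited these counts as whole numbers per gene without normalization. The authors also deposited TPM, scaled by gene length within each library. A table of normalized counts was not used. Each table held 1 further column that matched no sample and was not analysed here.

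Low counts were removed by filterByExpr of edgeR (at least 10 counts, at least 15 in total). The remaining 18492 genes were scaled with TMM and tested by quasi-likelihood in edgeR, and p-values were adjusted after Benjamini and Hochberg. Intervals at 95% came from the fit's total degrees of freedom, which add prior to residual ones. Replicates differed by more than sampling noise (a chi-square of 4.04 or more per degree of freedom), and p-values measure only the spread between these mice. Counts per library were 14229259 to 21150439, and precision at low counts is limited by counting error.

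The members and lists were chosen with earlier results of these data known. Members with an adjusted p under 0.05, members whose call changed under an alternative other than leaving out a mouse, the highest TPM of each role, Ctnnb1, Axin2, Lef1, Nkd1, Rnf43 and Znrf3, and up to 10 other Wnt genes by p were named by rule. Lrp5, Rspo1, Rspo2, Wnt10a, Wnt11, Apc2, Igfbp4, Prickle3 and other members were named after their values were seen. Alternatives were DESeq2's size factors and test, upper quartile scaling, limma on log2(TPM + 1), no filter, a replicate block, a fold threshold of 0.58 and each mouse left out. Robust estimates and the olfactory bulb covariate were chosen after seeing the data. Positions came from GENCODE M21, where 259 rows had no symbol, and promoters from RefSeq. The tools were DESeq2 1.42.0, limma 3.58.1 and edgeR 4.0.16 under R 4.3.3.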

Additional observations from a re-analysis of the deposited data

Results flagged for a closer look

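In each of 110 groups of 4 or 5 mice (1 per tested member and age), the gap between the most extreme mouse and its neighbour was set against the whole range on a log scale with Dixon's test. Chance flags about 1 in 20 groups, or 5.5 of these, and 9 were found. For Lgr5, young mouse 2 stood apart at 16.4 CPM beside 8.26 to 9.76 CPM in the other young mice (gap over range 0.756), and this mouse had the highest olfactory bulb markers of the young at 80.2 CPM. For the Frizzled genes, old mouse 3 was low for Fzd7 (20.0 beside 23.1 to 23.5 CPM, 0.897) and Fzd8 (4.51 beside 5.14 to 5.22 CPM, 0.893), and young mouse 4 was low for Fzd10 (1.84 beside 3.09 to 3.4 CPM, 0.844). For the ligands, old mouse 1 was low for Wnt16 (0.584 beside 0.917 to 0.939 CPM, 0.948), young mouse 1 was low for Wnt5b (1.72 beside 2.2 to 2.41 CPM, 0.726), and old mouse 3 was high for Wnt11 (1.13 beside 0.763 to 0.797 CPM, 0.891). Lgr4 was low in young mouse 3 (38.6 beside 41.3 to 42.0 CPM, 0.798), and Axin1 was high in old mouse 4 (31.6 beside 30.1 to 30.3 CPM, 0.849).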

How the results depend on the processing

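The number of members that passed was 2 with DESeq2's size factors, upper quartile scaling and robust estimates (the same genes, Rnf43 and Tcf7), 2 with DESeq2's test (Tcf7 and Wnt7b) and 2 with the olfactory bulb covariate (Wnt7b and Wnt9a). It was 1 with limma on log2(TPM + 1) (Lgr6), 5 without the filter on low counts (Lgr5, Lgr6, Rspo3, Wnt7b and Wnt9a), 0 with the fold threshold, and 0 to 2 with a mouse left out, 0 without young mouse 3 and without old mouse 5 (edgeR), where 13 and 10 members had an unadjusted p under 0.05. Over all genes 1690 (9.14%) passed with the bulb covariate and 2353 of 35028 (6.72%) without the filter, beside 3.64% and 8.33% of the members. The count was 594 with limma on log2(TPM + 1) and 495 with the fold threshold, and 1454 to 1942 with a mouse left out. Of the other Wnt genes, 1 passed with limma on log2(TPM + 1) (Kremen2), 8 (8.79%) with the bulb covariate, 5 with the fold threshold and 7 to 10 with a mouse left out. The log2 fold change of Axin2 turned to -0.0062 without the filter and -0.016 with the covariate, and ranged from -0.036 to 0.050 with a mouse left out. With limma on log2(TPM + 1) it was -0.0097 after the median change of all genes, -0.142, was subtracted. The adjusted p-values of that fit were taken without this subtraction. Why these counts moved was not tested.

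There was no clear sign that the replicate numbers pair the mice. The deviations of same-numbered mice correlated by -0.118 to 0.17 over 4 pairs, and those of differently numbered mice by -0.218 to 0.164. With the replicate block, 5 members passed (Lgr5, Lgr6, Rspo3, Sfrp1 and Tcf7), 9.09% of those tested beside 9.12% of all genes (1687). Of the other Wnt genes, 10 (11.0%) passed with the block. The calls of Rnf43 (adjusted p = 0.0967), Kremen2 (0.0579) and Adgra2 (0.0773) were lost, and Axin2 was at -0.014. With 5 and 4 mice the median standard error of the members was 0.11, and for genes of few counts such as Wnt11 and Wnt10b the intervals allowed changes beyond 0.58.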
